A study of Rattus norvegicus with 4 samples.

Results

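The genes described here are 9 sensors, transcription factors and products of the interferon response, measured as RNA in cultured cortical neurons from rat embryos of day 18 that received either DMSO, the solvent, or topotecan, an inhibitor of topoisomerase I. They were chosen by symbol: Ddx58 and Ifih1, which code for the RNA sensors RIG-I and MDA5, the transcription factor genes Stat2, Irf9 and Irf7, and the interferon-induced genes Mx2, Isg15, Ifit3 and Bst2. Of the 9, 8 have a row among the 21648 genes of the table, and Bst2 was not analysed here. Each group comprised 2 libraries from commercially supplied cortex, with between 22957786 and 31181382 gene counts per library. For strain, topotecan dose, exposure time and the independence of the cultures, nothing was given in the sources used here, so the p-values reflect only the variation between these libraries, and that may be technical. The submitters used topotecan to lower the expression of long genes.

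Cells detect viral RNA in the cytoplasm through helicases of the RIG-I family, which signal through the mitochondrial adaptor MAVS to kinases and interferon regulatory factors that switch on interferon genes. Secreted type I interferon binds its receptor, and the Janus kinases then phosphorylate STAT proteins, among them STAT2, which joins IRF9 in a complex that binds the interferon-stimulated response element (ISRE) in promoters. The genes switched on this way include the sensors themselves, Irf7, Stat2 and antiviral effectors such as Mx proteins, IFIT proteins, BST2 and the ubiquitin-like protein ISG15. In brain, microglia and astrocytes are strong responders to interferon, and neurons respond as well.

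The 2 RNA sensor genes and Mx2 were much lower in topotecan than in DMSO, Irf9 was modestly lower, and Stat2 and Irf7 did not pass the test. Of the 6 members with enough counts to test, 4 fell and 0 rose (quasi-likelihood test of edgeR, p adjusted by Benjamini-Hochberg, threshold 0.05), against 23.5% of all 12162 tested genes that were lower and 16.2% that were higher. Scaling to the summed counts of 22 short pan-neuronal genes instead, called neuronal scaling from here on, gave 4262 genes lower and 256 higher in all, against 2854 and 1970, and 5 members lower. At an unadjusted p under 0.05, 5 members were lower and 0 higher, and DESeq2 and limma-voom also called 0 members higher. The median log2 fold change was -1.81 over the 6 tested members and -0.01 over all tested genes. Isg15 and Ifit3 were near the limit of detection in every library. The filter on low counts can pass a gene through its DMSO counts alone, as it did for Ddx58 and Ifih1, so these 6 are not the whole list. In the same libraries the summed astrocyte markers stood at 8.35% and 9.01% of their DMSO mean, and their part in the members' falls was not tested. Abundant markers weigh most in this sum: Glul stood at 25.1% of DMSO, Aldoc at 8.01% and Slc1a3 at 0.558%. The median log2 fold change over the 14 astrocyte markers was -6.56, a deeper fall than that of the sum. In bulk RNA, fewer cells of a type and less RNA per cell cannot be told apart.

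**Figure D1:**
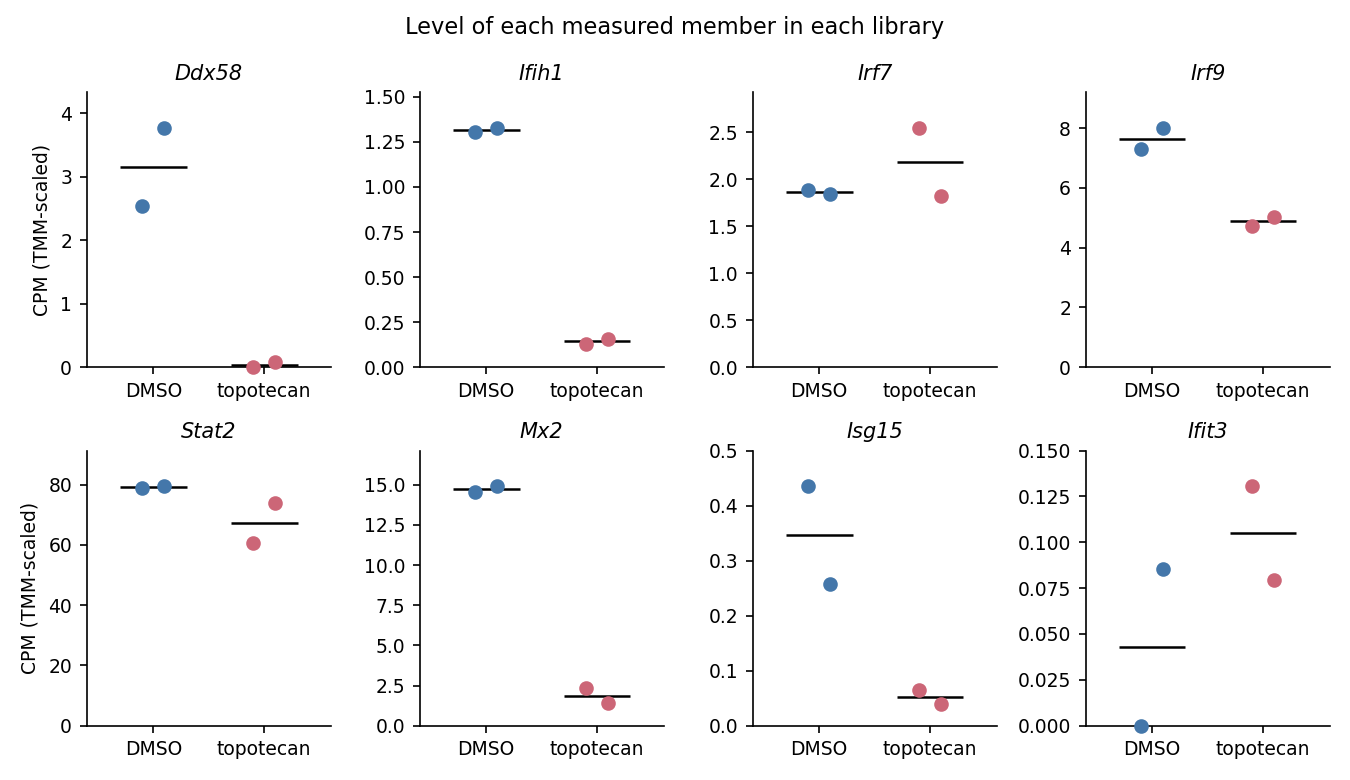
Level of the 8 measured members in each library, in CPM (counts scaled to a common library size, with TMM factors), each panel with its own axis from 0. Points are libraries (DMSO blue, topotecan red) and lines are group means. Both topotecan libraries lie below both DMSO libraries for Ddx58, Ifih1, Irf9, Stat2, Mx2 and Isg15, and the groups overlap for Irf7 and Ifit3.

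Ddx58 (ENSRNOG00000006384), named Rig1 in the RefSeq annotation, codes for the sensor of RNA with a 5′ triphosphate end. DMSO libraries held 70 and 88 counts of it and topotecan libraries 0 and 2, which is 2.54 and 3.77 CPM against 0 and 0.0793 CPM. The summed, depth-scaled counts were 86.7-fold lower in topotecan, with an exact 95% counting interval from 23.6 to 722 that covers counting error only. The fitted log2 fold change was -6.27 (SE 0.60, edgeR adjusted p = 1.84e-06). Leaving out topotecan replicate 1 gave -5.21. Leaving out topotecan replicate 2 gave -9.41, a value that rests on no topotecan count.

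Ifih1 (ENSRNOG00000006227) codes for MDA5, the sensor of long double-stranded RNA. Its counts were 36 and 31 in DMSO and 4 and 4 in topotecan, or 1.32 ± 0.0158 against 0.145 ± 0.0199 CPM (SD, n = 2 each). Both topotecan libraries lay far below both DMSO libraries. The log2 fold change was -3.16 (SE 0.48, edgeR adjusted p = 1.47e-04), and the ratio of summed counts was 9.19 with a counting interval from 4.40 to 22.1.

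Dhx58 codes for LGP2, the remaining helicase of the family, which lacks the signalling domain of the other two. On 82 and 70 counts in DMSO against 147 and 109 in topotecan, its level was 2.99 ± 0.0175 and 4.56 ± 0.335 CPM (SD, n = 2 each). The groups did not overlap, and Dhx58 rose (log2 fold change 0.61, SE 0.20, edgeR adjusted p = 0.0272). This call was lost with DESeq2 (0.141), with neuronal scaling (0.336) and without DMSO replicate 1 (0.0557), DMSO replicate 2 (0.0549) or topotecan replicate 1 (0.154). Mavs, the adaptor of both sensors, fell by 0.59 (SE 0.13, edgeR adjusted p = 0.00212), from 34.7 ± 0.381 to 23.0 ± 3.47 CPM (SD, n = 2 each). Without topotecan replicate 1 its adjusted p was 0.0583.

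Promoter windows of the members were searched for the element that the complex of STAT2 and IRF9 binds. RefSeq windows of 250 bases before to 50 bases after a start site (assembly GRCr8) were found for 6 of the 9 members, namely Ifih1, Irf7, Irf9, Stat2, Ifit3 and Bst2. The start site is the outer end of the annotated gene for Ifih1, Ifit3 and Bst2. For Irf7, Irf9 and Stat2 it lies inside the annotated gene. The ISRE core was searched as GAAA, any 2 bases and GAAA on either strand, which reads TTTC, any 2 bases and TTTC on the other. It was present in 4 of these 6 windows (Ifih1, Irf7, Ifit3 and Bst2) and in 3.77% of all 27457 gene windows. The windows of Irf9 and Stat2 did not hold these letters. The Irf9 window lies wholly inside the annotated gene and the Stat2 window partly. Bases before the annotated gene start were thus not searched for Irf9 and only partly for Stat2. The STAT dimer motif TTCNNNGAA, which reads the same on both strands, was in the windows of Irf9 and Bst2 and in 8.68% of all windows. A match is a description of the letters and does not show binding. The sequences of Ifih1, which fell, of Ifit3, which stayed near the limit of detection, and of Irf7, which did not pass the test, show the element in genes with 3 different outcomes. They are printed 5′ to 3′ on the strand of the gene, with the core in capitals. The first and second are the 250 bases before the start, the last a stretch of 30 bases that lies inside the annotated span of Irf7.
Ifih1, chr3:67683969-67684218, minus strand: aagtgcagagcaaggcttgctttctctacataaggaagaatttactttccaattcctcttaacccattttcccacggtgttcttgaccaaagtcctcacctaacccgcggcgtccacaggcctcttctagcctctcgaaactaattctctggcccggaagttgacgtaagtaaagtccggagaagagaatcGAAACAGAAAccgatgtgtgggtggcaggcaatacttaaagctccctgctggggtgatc
Ifit3, chr1:241527076-241527325, plus strand: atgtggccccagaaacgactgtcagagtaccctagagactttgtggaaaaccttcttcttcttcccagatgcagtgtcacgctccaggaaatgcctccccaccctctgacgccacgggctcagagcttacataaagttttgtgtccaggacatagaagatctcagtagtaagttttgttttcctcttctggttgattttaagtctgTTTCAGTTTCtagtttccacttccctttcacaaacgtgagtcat
Irf7, chr1:205800073-205800102, minus strand: acagtttaggTTTCATTTTCccgagacgca
The core begins 59 bases before the window's start site in Ifih1, 44 in Ifit3 and 69 in Irf7. For Irf7 both the start site and the core lie inside the annotated gene, so this core is not upstream of the annotated gene start. In Ifih1 the core stands on the strand of the gene, and in Ifit3 and Irf7 on the opposite strand.

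The factor that assembles at this element changed unevenly. Stat2 (ENSRNOG00000031081) had 78.8 and 79.4 CPM in DMSO and 60.5 and 74.1 CPM in topotecan. Both topotecan libraries were lower, but they differed from each other by more than the nearer of them differed from DMSO. The log2 fold change of -0.23 (SE 0.11) did not pass the test (edgeR adjusted p = 0.0978). It did pass with neuronal scaling (-0.53, adjusted p = 0.00334). Neuronal scaling takes the median over all tested genes from -0.01 to -0.30, so relative to that median Stat2 was little changed by it.

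Irf9 (ENSRNOG00000019478), the DNA-binding partner, had 7.29 and 8.01 CPM in DMSO and 4.73 and 5.04 CPM in topotecan, with no overlap. It fell by 0.65 (SE 0.17, edgeR adjusted p = 0.00905). The adjusted p was 0.0504 with DESeq2 and 0.0591 without topotecan replicate 1. Whether Irf9 and Stat2 changed by different amounts was not tested.

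Irf7 (ENSRNOG00000017414) codes for the factor that amplifies interferon gene transcription, and it is itself a classical ISRE target. It had 1.89 and 1.84 CPM in DMSO and 2.54 and 1.82 CPM in topotecan, and the groups overlapped. Its log2 fold change was 0.24 (SE 0.27, edgeR adjusted p = 0.515), with a sign that turned to -0.04 under neuronal scaling and to -0.03 without topotecan replicate 1. The counting interval of the topotecan to DMSO ratio ran from 0.904 to 1.57. A change as large as that of Ifih1 lies outside this interval, which covers counting error only.

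Mx2 (ENSRNOG00000001963) codes for an antiviral dynamin-like GTPase. Counts were 401 and 348 in DMSO but 71 and 35 in topotecan, or 14.7 ± 0.258 against 1.85 ± 0.657 CPM (SD, n = 2 each). The topotecan libraries differed from each other more than the DMSO libraries did, and both were well below DMSO. The log2 fold change was -2.96 (SE 0.21, edgeR adjusted p = 7.87e-08), and the ratio of summed counts was 7.75 with a counting interval from 6.32 to 9.59. Its paralog Mx1 was counted 20 and 10 times in DMSO libraries against 1 and 15 times in topotecan libraries, which is a log2 fold change of -0.99 (SE 0.74, edgeR adjusted p = 0.314). Mx genes are near copies of each other, and the sources used here do not give how the authors' counting divided shared reads.

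Isg15 (ENSRNOG00000021802), the ubiquitin-like modifier, was counted 12 and 6 times in DMSO against 2 and 1 times in topotecan, too few to test. The summed, depth-scaled counts were 6.58-fold lower in topotecan, with a counting interval from 1.92 to 34.9. Ifit3 (ENSRNOG00000022839), whose protein binds foreign RNA together with other IFIT proteins, was counted 0 and 2 times in DMSO against 4 and 2 times in topotecan. Its ratio of topotecan to DMSO was 2.73 with a counting interval from 0.489 to 27.7, so no difference was detectable at this depth. With no filter on low counts, Isg15 had an edgeR adjusted p of 0.0447, and with DESeq2 one of 0.185.

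Beyond the members, 7 lists of interferon pathway genes named 166 genes, of which 136 rows were found and 78 could be tested. The test called 32 of these 78 lower and 7 higher, and the median of their log2 fold changes was -0.42, against 23.5% lower and 16.2% higher over all tested genes. Some of the falling genes passed the filter on low counts only through DMSO, 4 of them with 0 topotecan counts. The share and the median therefore describe these rows and support nothing further. The 7 rises became 1 with neuronal scaling, 3 with DESeq2 and 4 without topotecan replicate 1. The falls stood at 25 to 41 over the alternatives. Astrocyte and oligodendrocyte lineage markers fell in the same libraries, 14 of 14 and 12 of 12, and their part in these counts was not tested.

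**Figure D2:**
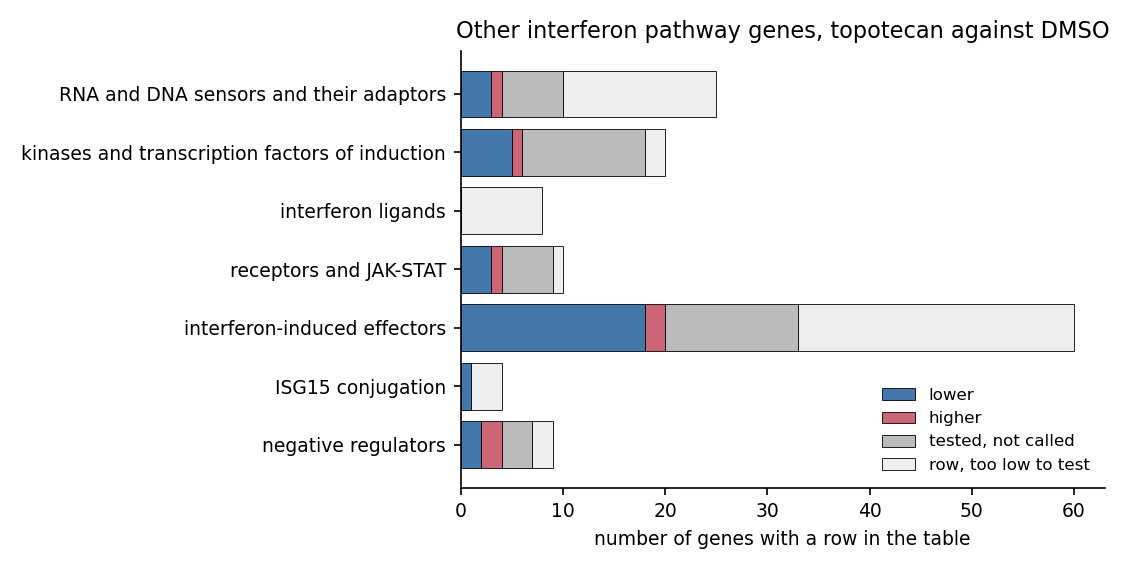
Number of genes in each of the 7 pathway lists, without the members, that were called lower or higher, were tested without a call, or had a row too low to test. The effector list holds 18 of the 32 falls, and the ligand list has no tested gene.

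Interferon-induced effectors held most of the falls. Of 33 tested effector genes 18 fell and 2 rose (median log2 fold change -1.55), and 27 other rows were too low to test. Beside this stand the 23.5% lower and 16.2% higher over all tested genes. Some of the falling genes passed the filter on low counts only through DMSO, among them Gbp5, Ifi44, Irgm and Trim21 with 0 topotecan counts and Trim30c with 0 and 1, so the share and the median describe these rows and support nothing further. Parp9 and Dtx3l, partners in a complex that modifies histones and viral proteins, were at -4.81 (SE 0.43) and -3.19 (SE 0.61) on the log2 fold change scale. Parp9 went from 131 and 83 counts in DMSO to 2 and 6 in topotecan. Ifi35, an interferon-induced leucine zipper gene, had 145 and 102 counts against 10 and 1 (log2 fold change -4.59, SE 0.42, edgeR adjusted p = 1.18e-06). Ifit2, a family member of Ifit3 with more reads, had 84 and 86 counts against 21 and 21 (-2.15, SE 0.29). Slfn13, a nuclease of transfer and ribosomal RNA, had 100 and 100 counts against 23 and 19 (-2.38, SE 0.27), and Ifitm2, a membrane protein gene that blocks viral entry, was at -2.20 (SE 0.42).

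Rsad2, which codes for the antiviral enzyme viperin, went from 12 and 20 counts to 4 and 3, and its call was lost with DESeq2 (adjusted p = 0.0881) and without DMSO replicate 2 (0.136). In 4 of the 18 falling effectors (Gbp5, Ifi44, Irgm and Trim21) both topotecan libraries had 0 counts. Against a floor of 3 counts summed over both topotecan libraries, Irgm was at least 66.5-fold lower and Trim21, an antibody receptor of the cytosol, at least 13.5-fold lower. Trim30c, with 124 and 90 counts against 0 and 1, Irgm, Gbp5 and Slfn13 belong to families of near copies, so their counts are uncertain. Shisa5 and Cmpk2 were the effectors that rose, by 0.52 (SE 0.08) and 0.43 (SE 0.15). Under neuronal scaling neither kept its call (adjusted p = 0.245 and 0.655), and Cmpk2 also lost it with DESeq2 (0.0615), with library totals alone (0.0585) and without DMSO replicate 1 (0.169), topotecan replicate 1 (0.138) or topotecan replicate 2 (0.0665). In the list for ISG15 conjugation, the E2 enzyme gene Ube2l6 alone could be tested among 4 rows. The rows of Uba7, Herc6 and Usp18 were too low to test. Ube2l6 fell from 105 and 66 counts to 9 and 7 (-3.52, SE 0.35, edgeR adjusted p = 2.92e-06).

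**Figure D3:**
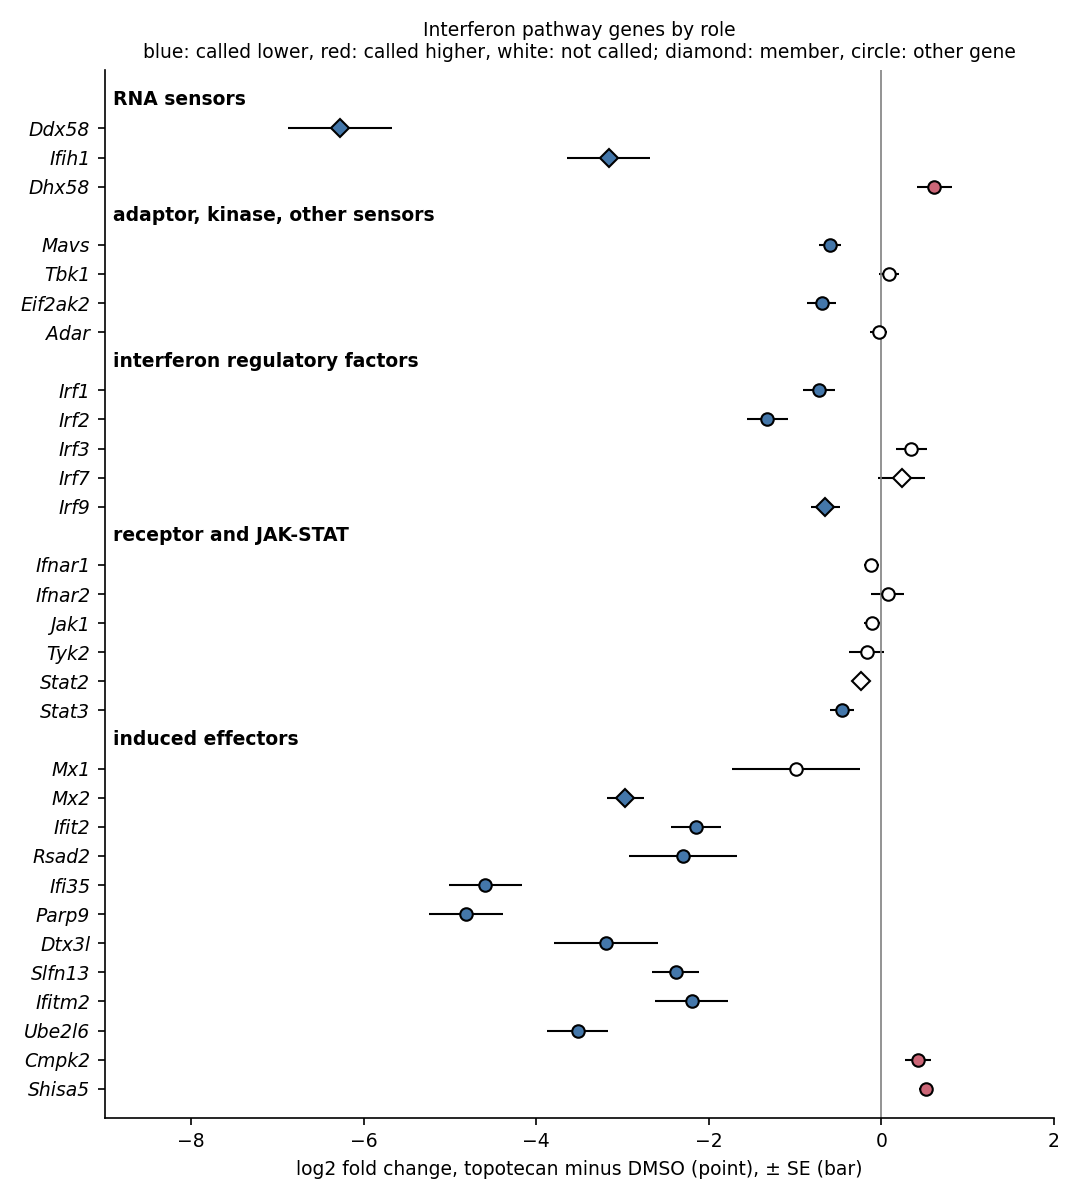
Log2 fold change of topotecan against DMSO (horizontal axis, points) with its standard error (bars) for the 6 tested members (diamonds) and a selection of other pathway genes (circles). Genes are grouped by role and filled blue where called lower, red where called higher and white where not called. The selection leaves out the effectors with at most 1 topotecan count, such as Irgm and Trim30c. It also leaves out effectors with smaller falls, such as Ifi27 (-0.98), Rtp4 (-1.55) and Sp110 (-1.86), and most effectors that were not called. Among the genes drawn, Ddx58 lies furthest to the left at -6.27, the effectors called lower lie between -2.15 and -4.81, and Ifnar1, Ifnar2, Jak1 and Tyk2 lie near 0, while Dhx58, Cmpk2 and Shisa5 lie to the right.

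Of the type I interferon genes on the ligand list, none with a row had a count. Interferon genes under other symbols were not looked up. Of 8 ligand genes with a row, 7 had 0 counts in all 4 libraries, Ifnb1 among them, and Ifng had 3 counts in one DMSO library and 1 in one topotecan library. A count of 0 over a group allows up to 0.0589 CPM in DMSO and 0.0537 CPM in topotecan. The interferon alpha genes are near copies of each other, whereas Ifnb1 is a single gene. For the receptor chain genes Ifnar1 and Ifnar2 the log2 fold change was -0.11 (SE 0.09) and 0.08 (SE 0.19), and the kinase genes Jak1 and Tyk2 -0.11 (SE 0.09) and -0.17 (SE 0.21). None of these 4 passed the test, though Ifnar1 (-0.41) and Jak1 (-0.41) did with neuronal scaling. That scaling takes the median over all tested genes from -0.01 to -0.30, so relative to that median both were little changed by it. In the receptor and JAK-STAT list as a whole, 3 of 9 tested genes fell and 1 rose (Ifngr1, by 0.26, edgeR adjusted p = 0.0491). Beside these counts stand the 23.5% lower and 16.2% higher over all tested genes. Stat3 and Il10rb were among the genes that fell, and the other is not reported here. The rise of Ifngr1 was lost under 7 alternatives, DESeq2 among them (adjusted p = 0.0514), and its sign turned with neuronal scaling. Il10rb lost its call with DESeq2 (0.0672) and without DMSO replicate 2 (0.0603) or topotecan replicate 2 (0.0552), and Stat3 (-0.45, SE 0.14) without topotecan replicate 1 (0.303).

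In the sensor list and the list of kinases and factors the share of falling genes was near the 23.5% of all tested genes. Among sensors and adaptors, 3 of 10 tested genes fell and 1, Dhx58, rose. Eif2ak2, the kinase PKR that halts translation on double-stranded RNA, went from 10.2 and 11.8 CPM in DMSO to 6.20 and 7.42 CPM in topotecan, a log2 fold change of -0.69 (SE 0.17). Without topotecan replicate 1 its adjusted p was 0.0543. Unc93b1, which carries Toll-like receptors to endosomes, was at -1.80 (SE 0.57) on 13 and 19 counts against 6 and 4, a call lost with DESeq2 (0.172) and without DMSO replicate 2 (0.207), topotecan replicate 1 (0.0840) or topotecan replicate 2 (0.107). Adar, the enzyme that edits double-stranded RNA, had 151 ± 22.1 and 148 ± 1.38 CPM and did not pass. Of 18 tested kinases and transcription factors of the induction step 5 fell and 1 rose, with a median of -0.05. Irf2, a repressor at interferon-responsive promoters, was at -1.32 (SE 0.23), Traf6, a ubiquitin ligase of Toll-like receptor signalling, at -1.10 (SE 0.19), and Irf1 at -0.72 (SE 0.19), the last without a call when topotecan replicate 1 was left out (adjusted p = 0.114). Nfkbia, the inhibitor of NF-kappa-B, rose by 0.48 (SE 0.11), a call lost with neuronal scaling (adjusted p = 0.400) and without topotecan replicate 2 (0.0857). Irf3 and Tbk1, the factor and kinase that first switch on interferon genes, were at 0.35 (SE 0.18) and 0.09 (SE 0.11) and did not pass. Irf3 had 28.6 CPM in topotecan replicate 1 and between 17.6 and 18.8 CPM in the other 3 libraries, and without topotecan replicate 2 it passed at 0.65 (adjusted p = 0.00292).

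Among 7 tested negative regulators 2 fell and 2 rose, beside 23.5% lower and 16.2% higher over all tested genes. Trex1, a DNA exonuclease that restrains interferon induction by cytosolic DNA, went from 13.2 and 11.8 to 19.3 and 19.6 CPM (log2 fold change 0.64, SE 0.13, edgeR adjusted p = 0.00189). Ptpn6, a phosphatase gene, was at 1.26 (SE 0.37), on 24 and 13 counts against 63 and 35. Neither kept its call in every alternative: Trex1 lost it with neuronal scaling (0.140), and Ptpn6 with DESeq2 (0.088) and without DMSO replicate 2 (0.0701) or topotecan replicate 1 (0.158). Cyld and Pias1 were the genes that fell, by 0.52 and 0.29. Cyld lost its call with DESeq2 (0.0636) and without DMSO replicate 2 (0.0606) or topotecan replicate 1 (0.208), and Pias1 without topotecan replicate 1 (0.152) or topotecan replicate 2 (0.0921).

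The members are short to medium genes. Their annotated spans run from 1.29 kb for Isg15 to 48.6 kb for Ddx58, with 48.0 kb for Ifih1, 24.3 kb for Mx2, 15.8 kb for Stat2, 6.46 kb for Irf9 and 3.59 kb for Irf7. Of 8116 tested genes that span less than 50 kb, 18.9% were lower and 20.8% higher, with a median log2 fold change of 0.08. The ISRE core was also present in the promoter windows of 11 of 23 other pathway genes that fell, of 34 of all 106 with a window, and of 0 of 6 that rose. With 1 mismatch allowed it was in 15 of the 23 and in 3 of the 6, and the difference between falling and rising genes was not tested. These lists were drawn up as interferon response genes, which are known for this element.

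Markers of the cells that the culture could hold moved beside the members. Tubb3, Stmn2 and Gap43 were the most abundant neuronal markers, and the summed level of 33 neuronal markers was 38972 and 35930 CPM in DMSO and 42186 and 43171 CPM in topotecan. Of the 31 neuronal markers tested, 5 fell, 12 rose and 14 did not pass, with a median log2 fold change of 0.12 and a lowest value of -1.53. Beside these and the marker counts below stand the 23.5% lower and 16.2% higher over all tested genes. Glial genes were abundant in DMSO as well, in a culture labelled as neurons. All 14 astrocyte markers fell, Glul, Slc1a3 and Aldoc the most abundant among them, and their summed level went from 6389 and 6495 to 538 and 580 CPM. Of this sum in topotecan, Glul alone held 423 and 453 CPM. All 12 oligodendrocyte lineage markers fell, Cnp and Mbp included, from 4042 and 4351 to 137 and 123 CPM in sum, and 6 of 7 tested radial glia and progenitor markers fell, among them Fabp7, Sox2 and Vim, from 363 and 342 to 12.5 and 11.9 CPM over 9 rows. Microglia markers were near 0 in both groups: none of the 15 rows reached 20 counts in any library, and Aif1, C1qa, C1qb, C1qc, Cx3cr1 and Tmem119 had 0 counts throughout. Their sum was 1.09 and 1.41 CPM in DMSO and 0.620 and 1.55 CPM in topotecan, so the groups overlapped. The endothelial sum was 3.52 and 3.21 against 2.02 and 1.94 CPM, with Cdh5 at 0, and the sum of fibroblast and mural markers was 12.4 and 13.9 against 8.16 and 9.56 CPM. Of 4 tested fibroblast and mural markers 2 fell (Pdgfrb at -6.37 and Postn at -3.88 on the log2 scale), 1 rose by 2.24, and Fn1 did not pass.

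**Figure D4:**
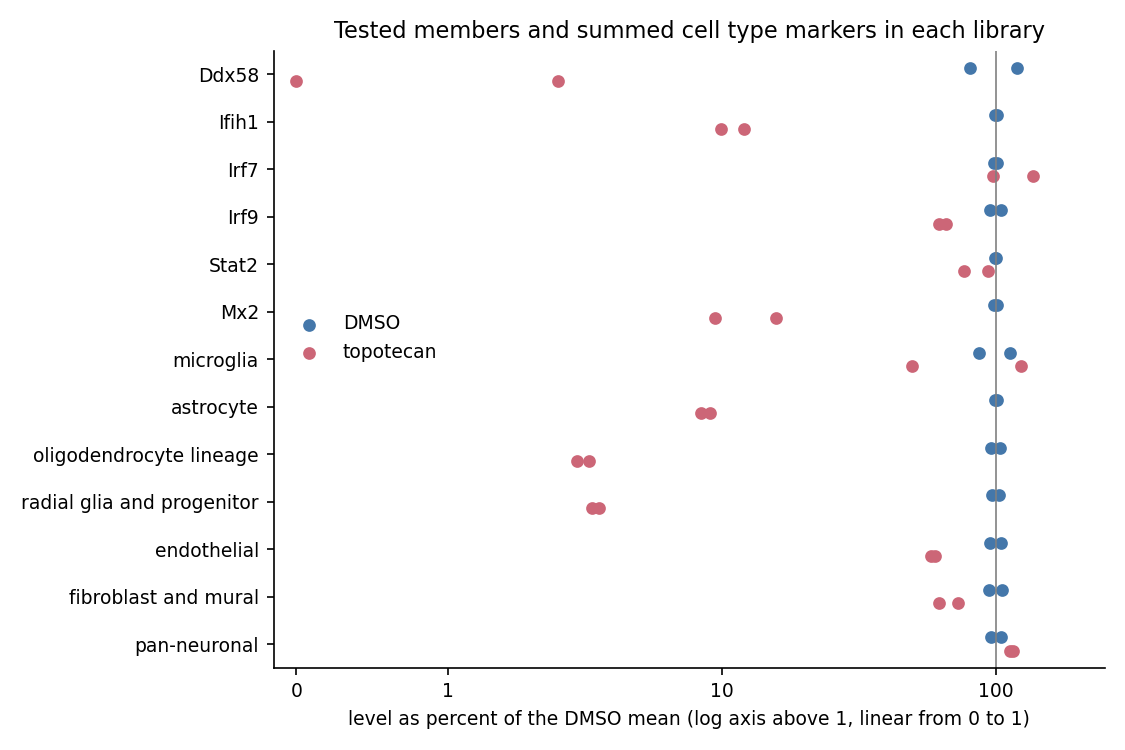
Level in each library as a percent of the DMSO mean (log axis above 1, linear from 0 to 1) for the 6 tested members and for the summed markers of 7 cell types. Points are libraries (DMSO blue, topotecan red). In topotecan, Ddx58 stood at 0% and 2.52% of the DMSO mean, and Ifih1 and Mx2 at 9.43% to 15.7%. Irf9 stood at 61.9% and 65.9%, Stat2 at 76.5% and 93.7%, and Irf7 at 137% and 97.9%. Astrocyte markers stood at 8.35% and 9.01%, and neuronal markers at 113% and 115%. Oligodendrocyte lineage markers stood at 3.27% and 2.94%, and radial glia and progenitor markers at 3.54% and 3.36%. Endothelial markers were at 60.1% and 57.8%, fibroblast and mural markers at 62.1% and 72.7%, and microglia markers at 49.6% and 124%.

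The 5 other tested genes whose 4 values lay closest to the mean profile of the 6 tested members were Slc6a11, Tom1l1, Nqo2, Spidr and Arsg. Likeness was the Euclidean distance over the 4 libraries in log2 CPM relative to each gene's DMSO mean, and it ran from 0.05 to 0.11. Slc6a11 codes for a GABA transporter known from astrocytes, and its log2 fold change was -1.89 (SE 0.17). Tom1l1, Nqo2, Spidr and Arsg were at -1.89, -2.04, -1.96 and -2.00. With 4 libraries in 2 groups, this measure mostly ranks genes by the size of their fold change. The mean profile, at -1.90 and -1.83 in topotecan, averages members whose log2 fold changes ran from -6.27 to 0.24. A gene close to that mean need not resemble any single member.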

How the data were processed

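The members and gene lists were chosen with earlier results of these data known. The authors deposited whole-number gene counts with Ensembl identifiers for 4 libraries, and the submitters' processing notes name STAR and edgeR. Versions, genome build, annotation, counting tool and strand setting were not given in the sources used here, so overlapping and near-identical genes can share reads. Per the labels' protocols a small RNA library kit was used. The table's 22641 rows held 21648 identifiers. The 792 identifiers on several rows had identical counts there and were counted once, and 14 rows had an identifier but no symbol and were kept. Replicates differed by more than sampling noise across genes reaching 10 summed counts (chi-square per degree of freedom 13.0 in DMSO, 9.34 in topotecan).

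The main test was edgeR 4.0.16's quasi-likelihood test (R 4.3.3) with treatment as the only term, TMM scaling and filterByExpr (minimum count 10, minimum total 15), on 2 residual degrees of freedom, with the Benjamini-Hochberg adjustment over 12162 genes and a threshold of 0.05. Scripts were tested on simulated counts. CPM use the TMM-scaled library sizes. Ratios of summed counts have exact (Clopper-Pearson) 95% intervals. Levels are compared across libraries only, since no transcript lengths were used. Alternatives were RLE scaling, library totals, scaling to 22 neuronal genes spanning under 30 kb, no filter, a filter at a mean of 0.5 CPM, DESeq2 1.42.0, limma-voom (limma 3.58.1), a replicate block and leaving out each library. Neuronal scaling used the sum of counts, so abundant genes weigh most, such as Tubb3, itself called higher in the main test (log2 fold change 0.35). Of the 22 genes, Cend1 and Pcsk1n had 0 counts in all 4 libraries.

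Spans and promoter windows come from RefSeq (GRCr8), matched by Entrez number, symbol or synonym. Named genes are all members, up to 4 called genes per pathway list with the smallest adjusted p and up to 2 in the opposite direction, up to 3 abundant markers per cell type and the 5 nearest profiles. The rule also names Top1, whose row held 3 counts in all and was not tested. Ifnar1, Ifnar2, Jak1, Tyk2, Tbk1, Irf3, Adar, Mx1, Ifit2, Rsad2, Trim21, Dtx3l, Gbp5, Slfn13 and Ifitm2 were added for their roles after their values were seen, as were the genes named for having 0 or few counts. Some genes that the rule names are not reported here.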

Additional observations from a re-analysis of the deposited data

How the results depend on the processing

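Over 12 alternatives, 67 of 72 log2 fold changes of the 6 tested members kept their direction and side of the threshold. The exceptions were Irf9 (2 calls lost), Stat2 (1 gained) and Irf7, which turned to -0.044 with neuronal scaling and ran from -0.026 to 0.45 with a library left out. Ddx58, Ifih1 and Mx2 passed in all 12. The count of members lower ran from 3 to 5, and of members higher was 0 throughout. Of 714 values for 60 other named genes 649 kept both, 45 lost the call, 5 gained it and 15 changed sign. With neuronal scaling these were Ifngr1 (-0.030), Esam (-0.048), Fn1 (-0.24), Stmn2 (-0.25), Gap43 (-0.032), Ifnar2 (-0.20) and Tbk1 (-0.21). With a library left out the range was -0.042 to 0.18 for Fn1, -0.31 to 0.011 for Tyk2, -0.0093 to 0.21 for Tbk1, -0.097 to 0.30 for Ifnar2, -0.16 to 0.13 for Adar, -0.034 to 0.65 for Irf3 and -3.98 to 0.030 for Mx1. The sign turned without DMSO replicate 1 (Fn1, Tyk2, Tbk1), DMSO replicate 2 (Ifnar2, Adar) or topotecan replicate 1 (Ifnar2, Irf3, Mx1, Irf7). Over all genes, 2854 were lower and 1970 higher, against 4262 and 256 with neuronal scaling. The higher count was 1208 to 2470 with a library left out, the lowest without topotecan replicate 1, and 1260 when topotecan replicate 2 was left out. The 7 other pathway genes higher became 1 with neuronal scaling, 3 with DESeq2 and 4 to 7 with a library left out. The cause of these changes was not tested.

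With the replicate block, 4 members, 32 other pathway genes and 2746 genes in all were lower, and 0, 6 and 1822 were higher. Across tested genes, the log2 differences between replicates 1 and 2 correlated at r = -0.04 between the groups. This single value over all genes cannot decide whether libraries of the same number shared a culture or batch. With 1 mismatch allowed, the ISRE core was still in 4 of 6 member windows, but in 37.0% of all windows. Isg15 and Ifit3 had too few counts for the test. For ligand and sensor rows at or near 0, low depth and absent expression cannot be told apart.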

Other observations

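The chemokine genes of the effector list were too low to test. Cxcl10, a chemokine gene strongly induced by interferon, was counted 0 and 3 times in DMSO against 10 and 5 times in topotecan, a ratio of 4.56 with a counting interval from 1.29 to 24.6 that covers counting error only. It was chosen after its values were seen. Ccl2 was counted 8 and 2 times in DMSO against 8 and 8 times in topotecan, a ratio of 1.46 (counting interval 0.622 to 3.60), and Ccl5 had 0 in all 4 libraries.

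Guanylate-binding and immunity-related GTPase genes act on pathogen vacuoles. Irgm (115 and 67 counts in DMSO) and Gbp5 (19 and 27) had 0 counts in both topotecan libraries and were called lower. Igtp was counted 41 and 24 times in DMSO against 10 and 11 times in topotecan (log2 fold change -1.74, SE 0.42, edgeR adjusted p = 0.00513), and Gbp1 had 36 and 20 against 18 and 19 and did not pass (-0.71, SE 0.39). Gbp2, with 4 and 13 counts in DMSO and 0 in both topotecan libraries, was too low to test. Differences between these genes were not tested. These families hold near copies, so their counts are uncertain.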
